A study of Mus musculus with 12 samples.

Results

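The 10 genes *Ttr*, *Folr1*, *Kl*, *Cldn2*, *Aqp1*, *Clic6*, *Slc4a5*, *Kcne2*, *Otx2* and *Msx1*, known as choroid plexus epithelial genes, were followed in primary brain cultures of *Myt1l* heterozygous (HET) and wild-type (WT) mice. They were found by symbol among the 55397 genes of the count table, and all 10 were present. The members were selected with the measured HET against WT values of these same animals in view, so their differences between genotypes are a description. Counts of members called in fits of all genes are printed beside the share of all genes called, and nothing is read from them, because the choice of members used the same contrast. RNA was sequenced from 6 animals, 3 HET (505, 506 and 508) and 3 WT (510, 511 and 513), each with 2 libraries. The HET animals carried a germline deletion of 7 bp in exon 6 of *Myt1l*, a frameshift made with CRISPR/Cas9 in zygotes. Both genotypes were cultured from newborn pups (P0) of the labelled strain C57BL/6J in medium with serum, and both received 2 µM Ara-C, which kills dividing cells, 3 days after plating. The labels give cortex as the tissue. The methods of the study name both hippocampus and cortex for such cultures, its supplement lists the sequenced ones as hippocampal at day in vitro 11, and its mice were bred with C57BL/6N. The *Myt1l* mRNA could not check the genotypes, because the labels state that the mutant transcript escapes nonsense-mediated decay.

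The choroid plexus is a folded tissue in the brain ventricles. Its epithelium secretes cerebrospinal fluid by moving ions and water, seals the space between blood and fluid with tight junctions, and exports carrier proteins. It arises from the dorsal midline of the neural tube, next to the cortical hem and the hippocampus, under homeodomain transcription factors that include OTX2 and MSX1. Ependymal cells, which line the ventricles and bear motile cilia, adjoin it, and meningeal fibroblasts accompany its stroma.

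Totals per animal were 40642699 to 52833161 counts. *Xist*, which is transcribed from an inactive X chromosome, had 18805 counts in WT animal 511 and 5 to 10 in the others, although the labels give every animal as male, so values without animal 511 are given as well. In edgeR's quasi-likelihood test 18264 genes passed the low-count filter, and 0% of them were called higher in HET at an adjusted p under 0.1 (smallest adjusted p = 0.17, 4080 genes with an unadjusted p under 0.05). In 15.5% of the tested genes every HET animal lay above every WT animal, and in 13.5% every HET animal lay below. The median log2 fold change of all tested genes was 0.00.

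Levels differed widely among the 10 genes, and *Ttr* stood far above the rest in both genotypes. Per kilobase of exon (RPKM, mean ± SD, n = 3 each), *Ttr* was at 628 ± 429 in HET and 94.1 ± 69.7 in WT cultures. *Folr1* followed at 23.4 ± 4.11 and 11.6 ± 1.49 RPKM, and *Aqp1* at 20.2 ± 24.3 and 9.82 ± 9.09 RPKM. *Folr1* was above *Aqp1* in 2 of 3 animals of either genotype, so their order did not hold beyond the spread. *Msx1* (6.14 ± 0.920 against 3.51 ± 0.335 RPKM), *Clic6* (4.15 ± 1.62 against 1.14 ± 0.460) and *Cldn2* (2.92 ± 0.946 against 0.715 ± 0.332) came next. *Otx2* was at 1.40 ± 0.453 and 0.582 ± 0.386 RPKM, and *Slc4a5* at 0.965 ± 0.522 and 0.223 ± 0.0860 RPKM. At the bottom, *Kcne2* (0.563 ± 0.574 RPKM) was above *Kl* (0.0898 ± 0.00703 RPKM) in all 3 HET animals, whereas *Kl* (0.114 ± 0.0279) was above *Kcne2* (0.0262 ± 0.0345) in all 3 WT animals. Of the other neighbours in this order, the lowest animal of the upper gene exceeded the highest animal of the lower gene only for *Ttr* over *Folr1* in both genotypes, *Cldn2* over *Otx2* in HET and *Msx1* over *Clic6* in WT.

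Of the 10 genes, 8 were higher in every HET animal than in every WT animal, *Kl* was lower in every HET animal, and *Aqp1* overlapped. Of these 10, *Kcne2* did not pass the low-count filter, and 9 were tested. None of the 9 was called by edgeR, where 0% of all tested genes were. The members were picked with these differences in view, so the 8 of 10 is no result about them beside the 15.5% of all tested genes, and neither are the calls of other tools. By DESeq2, 8 of the 10 members were called higher (*Ttr*, *Folr1*, *Cldn2*, *Clic6*, *Slc4a5*, *Kcne2*, *Otx2* and *Msx1*), where 7.42% of all genes it tested were. The median log2 fold change was 1.25 over the 9 members that passed the filter.

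**Figure D1:**
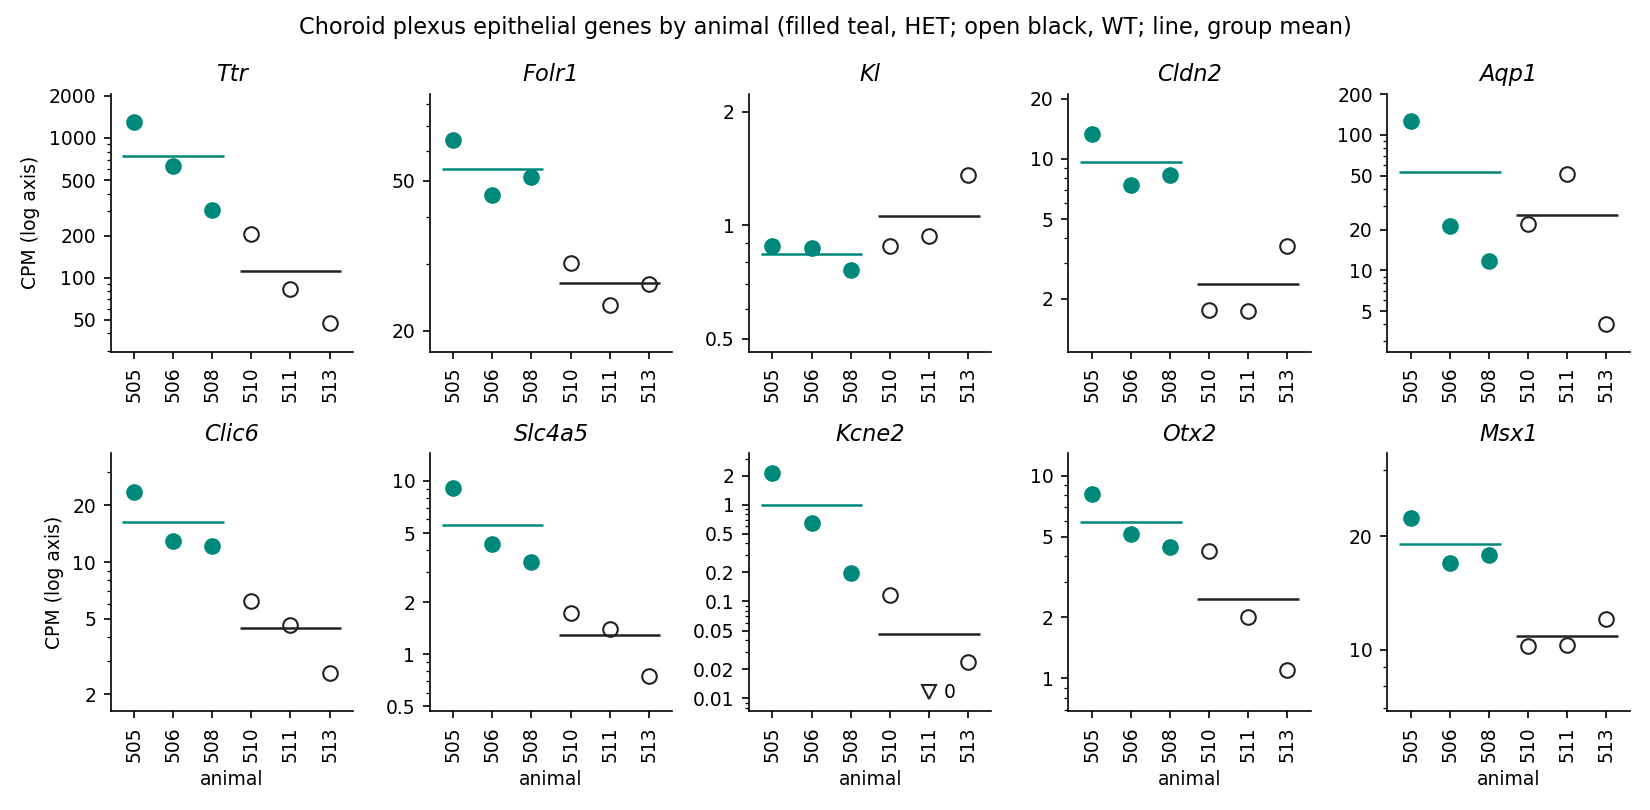
Scaled counts (CPM, log axis) of each gene in each of the 6 animals, with HET animals as filled teal points, WT animals as open black points and group means as lines; the triangle marks 0 counts of Kcne2 in WT animal 511. In 8 panels the HET points lie above all WT points, in the panel of Aqp1 they overlap, and in the panel of Kl they lie lower.

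*Ttr* encodes transthyretin, a carrier of thyroid hormone and retinol that this epithelium exports into the fluid. It was at 1302, 631 and 303 CPM (counts scaled to the library size) in HET animals 505, 506 and 508, and at 205, 82.9 and 47.1 CPM in WT animals 510, 511 and 513. The genotypes did not overlap, and the highest animal was 4.30 times the lowest in HET and 4.35 times the lowest in WT cultures. The log2 fold change was 2.74 with a standard error of 0.67, and 3 of all tested genes, *Ttr* included, had one at least as large. It ran from 2.06 without animal 505 to 3.50 without animal 510, and was 2.56 without animal 511. *Ttr* contributed 82.8%, 84.5% and 73.4% of the summed CPM of the 10 genes in the HET animals, and 72.6%, 46.4% and 47.5% in the WT animals. The sum without *Ttr* was 270, 115 and 110 CPM in HET and 77.4, 95.7 and 52.1 CPM in WT animals, so the genotypes did not overlap in this sum either. In bulk samples, fewer cells of a type and less RNA per cell cannot be told apart.

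*Folr1*, the folate receptor that loads folate into cerebrospinal fluid, was among the least variable of the set. It was at 64.2, 45.9 and 51.1 CPM in HET and at 30.2, 23.3 and 26.6 CPM in WT animals, without overlap. Its log2 fold change was 1.01 (standard error 0.15) and stayed between 0.86 and 1.10 with any 1 animal left out. On the opposite strand the gene overlaps *Anapc15*, a subunit gene of the anaphase-promoting complex, which had 528 to 621 counts in HET and 668 to 838 in WT animals, the opposite order to *Folr1*. The libraries were made with a kit that marks strand, and the sources used here do not state whether counting used strand.

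*Kl* encodes Klotho, a coreceptor for FGF23 that is also shed into cerebrospinal fluid, and it was the only member with a negative difference. Its counts were 40, 36 and 31 in HET and 46, 42 and 58 in WT animals, or 0.88, 0.87 and 0.76 CPM against 0.88, 0.93 and 1.36 CPM. The genotypes did not overlap, but HET animal 505 and WT animal 510 were nearly equal. The log2 fold change was −0.33 (standard error 0.25) and lay between −0.46 and −0.13 with 1 animal left out, nearest to 0 without WT animal 513. *Kl* was thus detected in every animal at low counts, and its difference was opposite in sign to those of *Ttr* and *Folr1*.

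*Cldn2*, which encodes the pore-forming claudin of the leaky tight junction in this epithelium, was at 13.3, 7.44 and 8.36 CPM in HET and 1.75, 1.74 and 3.65 CPM in WT animals. All HET animals lay above all WT animals. The log2 fold change was 2.03 (standard error 0.35), with a range of 1.74 to 2.46 when 1 animal was left out. WT animal 513 was the highest WT animal for *Cldn2* and the lowest for *Ttr*. The ratio of *Ttr* to *Cldn2* counts ran from 117 in WT animal 510 to 47.8 and 12.9 in WT animals 511 and 513, and was 98.0, 84.9 and 36.2 in the HET animals.

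Among the ion and water transport genes, *Clic6* (a chloride intracellular channel protein) and *Slc4a5* (a sodium bicarbonate cotransporter of the apical membrane) followed *Ttr*. *Clic6* was at 23.6, 13.0 and 12.1 CPM in HET and at 6.19, 4.63 and 2.60 CPM in WT animals, a log2 fold change of 1.85 (standard error 0.36). *Slc4a5* was at 9.06, 4.32 and 3.42 CPM against 1.73, 1.40 and 0.75 CPM, a log2 fold change of 2.10 (standard error 0.44). Neither gene overlapped between genotypes, and both had the same order of all 6 animals as *Ttr*, from 505 at the top to 513 at the bottom. With 1 animal left out the values stayed at 1.48 to 2.15 for *Clic6* and at 1.57 to 2.36 for *Slc4a5*. A transcript on the same strand that overlaps *Clic6*, *2410124H12Rik*, had 0 to 7 counts.

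*Kcne2*, a potassium channel beta subunit of the apical membrane, was the lowest in WT animals. It had 97, 27 and 8 counts in HET and 6, 0 and 1 counts in WT animals. The 0 counts of WT animal 511 allow a level of up to 0.0668 CPM, for counting error only. Every HET animal was above every WT animal, although the lowest HET animal (8 counts) was close to the highest WT animal (6 counts). Without the low-count filter the fit gave it a log2 fold change of 4.25 (standard error 0.84), a value that rests on 7 WT counts in all.

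*Aqp1* is the water channel of the apical membrane, and meningeal and blood vessel cells express it as well. It was at 127, 21.1 and 11.7 CPM in HET and at 22.1, 51.3 and 4.0 CPM in WT animals. Only HET animal 505 was above all WT animals, and HET animals 506 and 508 lay below WT animals 510 and 511. The log2 fold change was 1.04 with a standard error of 1.02. It turned to −0.65 without HET animal 505 and reached 2.02 without WT animal 511. *Col1a1*, a collagen gene of fibroblasts, was at 578, 195 and 176 CPM in HET and 221, 371 and 85.8 CPM in WT animals, and its order of animals was that of *Aqp1*. The 8 meningeal fibroblast markers summed to 1592, 509 and 421 CPM in HET and 501, 842 and 193 CPM in WT animals, and their part in the values of *Aqp1* was not tested.

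Both transcription factor genes were higher in every HET animal than in every WT animal. *Otx2*, which specifies and maintains the epithelium, was at 8.06, 5.17 and 4.45 CPM in HET and 4.27, 2.00 and 1.10 CPM in WT animals. The genotypes did not overlap, but HET animal 508 and WT animal 510 were close. Its log2 fold change was 1.25 (standard error 0.46) and ran from 0.89 without animal 513 to 1.91 without animal 510. The antisense transcript *Otx2os1*, which overlaps *Otx2*, had 14, 13 and 13 counts in HET and 2, 3 and 3 in WT animals. *Msx1*, a BMP target of the dorsal midline, was at 22.3, 17.0 and 17.8 CPM in HET and 10.2, 10.3 and 12.1 CPM in WT animals. All HET animals were higher, with the smallest standard error of the set (log2 fold change 0.81, standard error 0.14, and 0.68 to 0.88 with 1 animal left out).

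**Figure D2:**
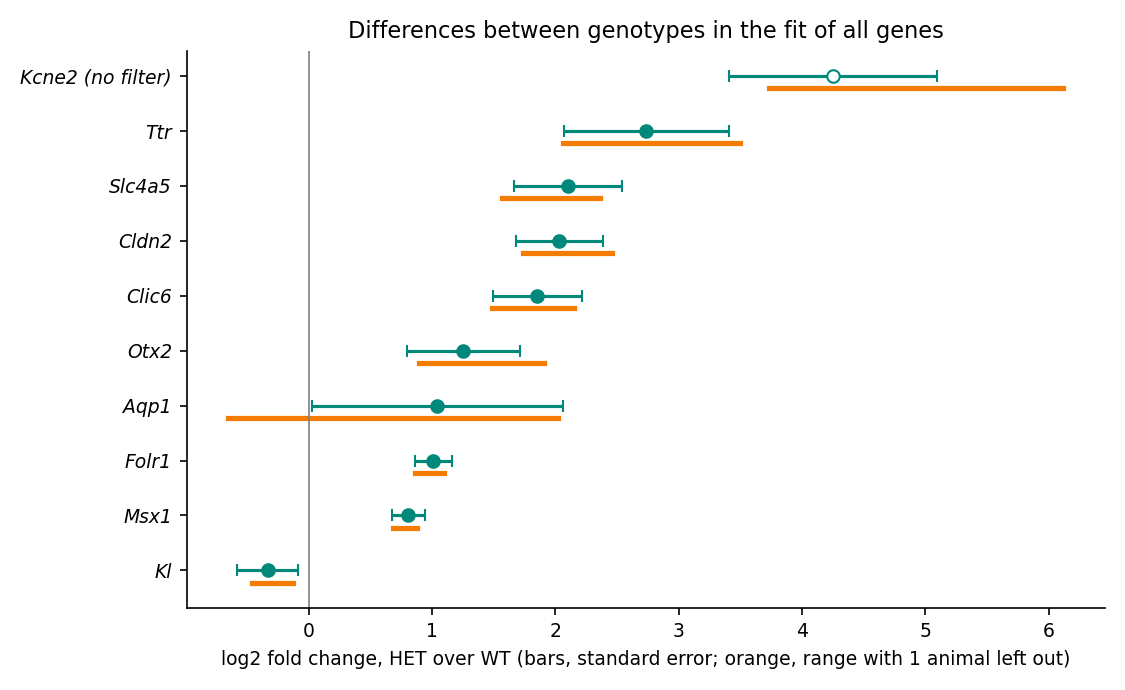
Log2 fold change of HET over WT for each gene (points, with standard errors as bars) and its range with 1 animal left out at a time (orange lines); the open point of Kcne2 is from the fit without the low-count filter, and its range covers the 4 of 6 reduced fits in which it passed the filter. Only the orange line of Aqp1 crosses 0, and only Kl lies below 0.

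Animals of one genotype were spread widely for most of these genes. The median coefficient of variation among animals was 35.8% in HET and 43.3% in WT cultures over the 10 genes, and 12.3% and 11.1% over all tested genes. HET animal 505 was the highest of all 6 animals in 9 of the 10 genes, and in 32.4% of all tested genes. In 7 genes the HET animals ran in the order 505, 506, 508, which held for 22.3% of tested genes, and in *Folr1*, *Cldn2* and *Msx1* 506 and 508 changed places. The WT animals ran in the order 510, 511, 513 for *Ttr*, *Clic6*, *Slc4a5* and *Otx2*, as in 18.3% of tested genes. These 4 genes thus shared 1 order of all 6 animals. All of these genes were read from the same libraries, and the pattern describes these animals only.

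**Figure D3:**
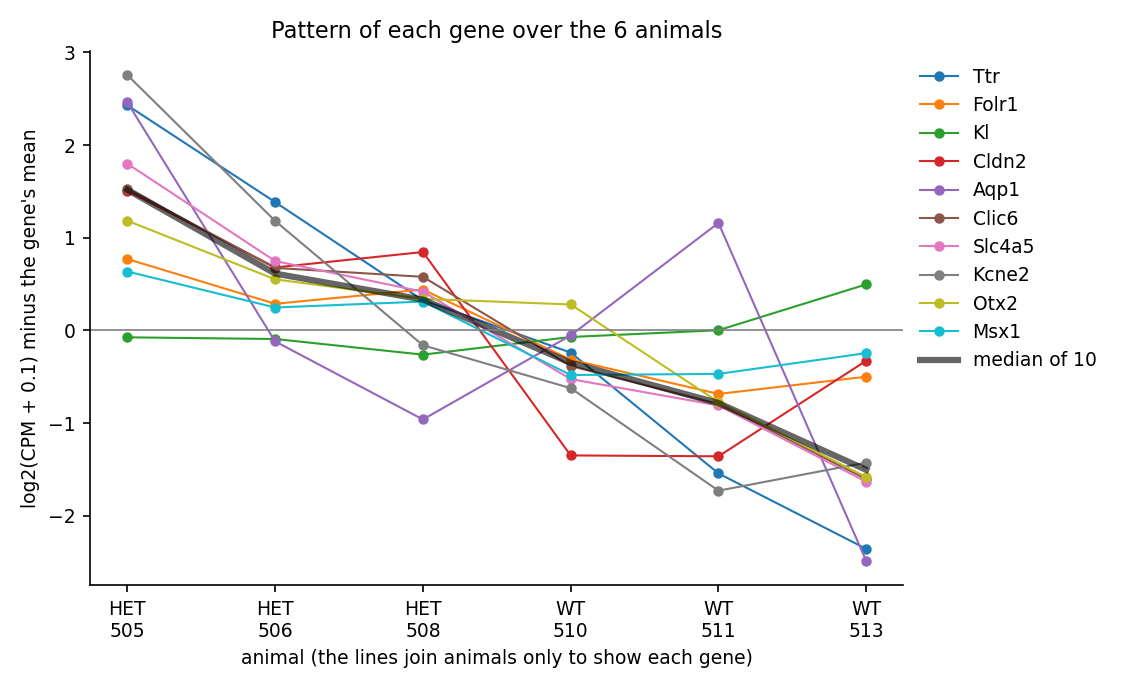
For each gene, log2(CPM + 0.1) minus its mean over the 6 animals (vertical axis) in each animal (horizontal axis), with the median of the 10 genes as a thick line. The median falls from 1.52 in HET animal 505 to −1.50 in WT animal 513, Kl stays near 0, and Aqp1 peaks in animals 505 and 511.

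Both libraries of an animal were compared as a measure of technical error, by a test that treats reads as independent and covers counting error only. Of the 60 pairs of gene and animal, 56 had enough counts for a chi-square test of the counts in both libraries against the library totals. None had an adjusted p under 0.1 (smallest adjusted p = 0.14, chi-square test with Benjamini-Hochberg adjustment over 56 pairs), and 6 had an unadjusted p under 0.05. The ratio of the second to the first library, scaled to their totals, ran from 0.652 (*Kl*, animal 510) to 1.56 (*Kl*, animal 506). For *Ttr*, with 1005 or more counts in every library, it stayed within 0.982 and 1.01 while the animals ran from 47.1 to 1302 CPM. How the first and second library of an animal differ is not stated in the sources used here.

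The members lie on 7 chromosomes, and *Kcne2* (chr16:92292389-92298129) and *Clic6* (chr16:92485736-92541243, mm10) are neighbours at a distance of 188 kb on the same strand. Between them 4 genes were tested. *Kcne1*, the gene of a related channel subunit, was at 0.84, 0.68 and 0.96 CPM in HET and 0.54, 0.40 and 0.54 CPM in WT animals, again without overlap (log2 fold change 0.74, standard error 0.26). *Gm29805* overlapped between genotypes (1.08, standard error 0.56), as did *Rcan1* (0.13, standard error 0.12) and *Smim11* (0.06, standard error 0.13). These genes were taken by position. The nearest tested genes on both sides of the 10 members, 20 in all, had a median log2 fold change of 0.10, with 13 positive, 5 higher in every HET animal and 1 lower in every HET animal. Over all tested genes the corresponding shares were 50.4%, 15.5% and 13.5%.

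Reference promoters of the members were searched for the motifs of a pair of relevant factors. Promoters of 7 of the 10 genes, taken from RefSeq (GRCm38.p6), were examined in 11 windows of 250 bases before a transcription start. No window of *Ttr*, *Folr1* or *Clic6* was examined, and whether their promoters hold either motif was not tested. The windows were searched on both strands for AAAGTT, the core that the study names for MYT1L, and for TAATCC, which homeodomain proteins of the OTX type bind. The motifs do not overlap each other. *Kcne2*, which has the lowest WT level of the set per exon length, held AAAGTT on both strands of its window at chr16:92292139-92292388 (plus strand). That window is shown whole with the motif and its reverse complement in capitals. The other window of *Kcne2*, at chr16:92295366-92295615, held neither motif. The window of *Cldn2* at chrX:139800558-139800807 (plus strand) is shown for comparison, as a member with a large difference and no match to either motif.
Kcne2: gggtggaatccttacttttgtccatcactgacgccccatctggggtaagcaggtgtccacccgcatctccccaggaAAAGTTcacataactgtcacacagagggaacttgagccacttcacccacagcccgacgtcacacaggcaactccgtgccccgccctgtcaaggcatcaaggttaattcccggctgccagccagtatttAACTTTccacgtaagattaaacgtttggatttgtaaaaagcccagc
Cldn2: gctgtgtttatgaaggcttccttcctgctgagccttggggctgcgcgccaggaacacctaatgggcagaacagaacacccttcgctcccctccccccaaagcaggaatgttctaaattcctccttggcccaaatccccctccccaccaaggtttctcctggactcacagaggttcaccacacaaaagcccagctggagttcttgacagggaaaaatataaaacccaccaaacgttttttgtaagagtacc

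The remaining matches are shown as stretches of 30 bases with the motif in capitals. *Aqp1* held AAAGTT 20 bases before its start (chr6:55336267-55336296, plus strand). *Otx2*, with 4 starts, held AAAGTT 47 bases before the second (chr14:48667538-48667567, minus strand) and GGATTA, the reverse complement of TAATCC, 211 bases before the third (chr14:48665303-48665332, minus strand).
Aqp1: aggaggaaggaaAAAGTTggcaggcagaca
Otx2 (start 2): agtttgcgtcaaAAAGTTgccagagaggcg
Otx2 (start 3): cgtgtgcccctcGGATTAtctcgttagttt
AAAGTT was thus found in 3 of 7 members and in 3 of their 11 windows, against 12.4% of 32851 promoters of the same length. TAATCC was found in 1 of 7 members, against 6.25% of promoters. A match describes letters in a window and not a bound site, and genes with several starts had more windows in which to match.

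Other genes of this epithelium were taken from a list of 41 further genes, of which 40 were tested. Log2 fold changes were positive in 37 of 40, against 50.4% of all tested genes, with a median of 0.56 against 0.00 over all tested genes, and 0 were called by edgeR. In 19 of 40 every HET animal was above every WT animal (15.5% of all tested genes), and in 1 (*Slc29a4*, a monoamine transporter gene, chosen after its values were seen) every HET animal was below (13.5% of all tested genes). An unadjusted p under 0.05 was found for 23 of the 40 with edgeR, and for 22.3% of all tested genes. DESeq2 called 17 of 40 higher and 1 lower, where it called 7.42% of all genes higher and 772 of 17844 genes lower. The limma voom fit called 19 higher and 2 lower, where it called 10.9% of all genes higher and 1804 of 18264 genes lower. The list was drawn up with results of these cultures known, and it is not independent evidence of a direction.

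By role, the 3 fate transcription factor genes tested were all positive with a median of 0.30. *Otx1* (0.24), *Msx2* (0.30) and *Lmx1a* (0.59) had standard errors of 0.16, 0.21 and 0.17, and only *Lmx1a*, a factor of the roof plate, did not overlap between genotypes. Of 22 carriers, receptors and secreted factors 20 were positive (median 0.57). The most abundant was *Igfbp2*, an insulin-like growth factor binding protein gene, at 1566, 1486 and 1072 CPM in HET and 1230, 1107 and 1223 CPM in WT animals, with overlap (0.21, standard error 0.16). *Ecrg4*, which encodes a secreted peptide precursor, was at 499, 482 and 471 CPM against 313, 265 and 379 CPM (0.60, standard error 0.14). *Lbp*, the gene of lipopolysaccharide binding protein, was at 251, 182 and 179 CPM against 119, 79.2 and 124 CPM (0.93, standard error 0.20). In both *Ecrg4* and *Lbp* all HET animals were higher. *Tmem72*, named after its values were seen, had the largest difference of the list at 16.7, 8.04 and 4.52 CPM against 2.27, 1.56 and 0.68 CPM (2.69, standard error 0.56), and its order of animals was that of *Ttr*.

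All 6 junction genes were positive with a median of 0.91. *Spint2*, a protease inhibitor gene, overlapped between genotypes (0.15, standard error 0.15), whereas *Cldn1*, a sealing claudin gene, was at 8.95, 5.26 and 4.82 CPM in HET and 4.42, 2.98 and 2.72 CPM in WT animals (0.91, standard error 0.29). *Krt18*, a keratin gene of simple epithelia, was at 5.51, 3.65 and 3.42 CPM against 2.07, 1.40 and 1.66 CPM (1.29, standard error 0.25). Of 9 ion and water transport genes 8 were positive (median 0.45), and 5 were higher in every HET animal (15.5% of all tested genes). The 3 most abundant of the 9 all overlapped between genotypes. They were *Slc4a10* (a bicarbonate transporter gene, −0.33, standard error 0.15), *Fxyd1* (a regulator of the sodium pump, 0.30, standard error 0.16) and *Trpm3* (a cation channel gene, 0.38, standard error 0.14).

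**Figure D4:**
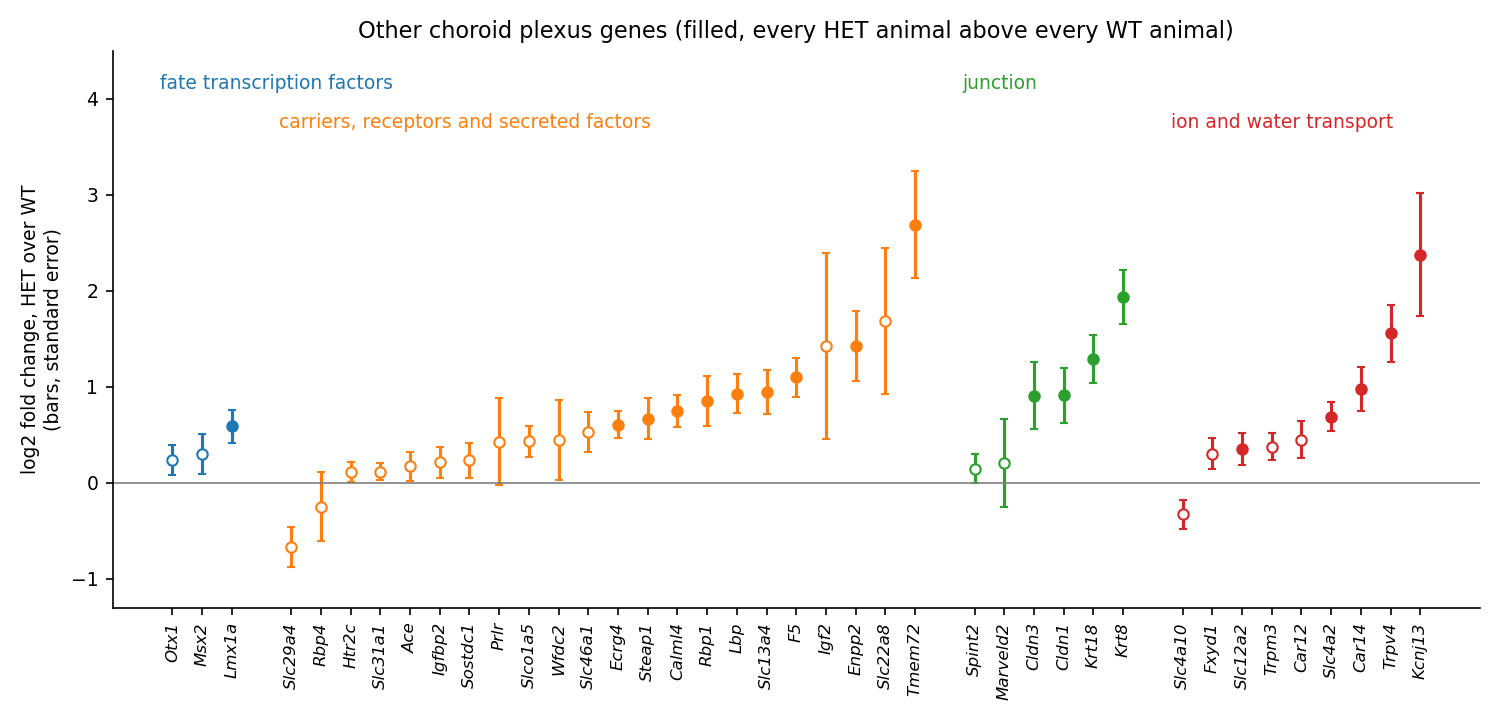
Log2 fold change of HET over WT with its standard error for the 40 other choroid plexus genes tested, grouped by role and sorted within each role; filled points are genes in which every HET animal was above every WT animal. Of the 40 points 37 lie above 0 and 19 are filled.

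The genes with the pattern most like the members were searched among 15112 tested genes with a mean of at least 1 CPM, members left out. Likeness was the root-mean-square difference, over the 6 animals, from the median pattern of the 10 genes on the log2 scale, and its median over the candidates was 0.99. The closest were *Zic4* (0.23), *Scara5* (0.24), *Enpp2* (0.29), *Krt8* (0.29), *Vtn* (0.29), *Wdr86* (0.34), *Piwil4* (0.38), *Kcnj13* (0.38), *Ptprc* (0.41) and *Krt18* (0.41). *Enpp2* (autotaxin), *Krt8* and *Krt18* (keratins of simple epithelia) and *Kcnj13* (a potassium channel) belong to the list of other choroid plexus genes. *Zic4*, a transcription factor gene of the dorsal midline, was at 11.8, 4.76 and 5.73 CPM in HET and 3.0, 2.72 and 1.71 CPM in WT animals. *Kcnj13* was at 7.56, 2.27 and 1.94 CPM against 1.10, 0.87 and 0.28 CPM. *Ptprc*, the common leukocyte antigen gene, was at 3.75, 1.71 and 1.52 CPM against 0.98, 1.45 and 0.59 CPM. The search used the same 6 animals, in which genes that were high in HET animal 505 and low in WT animal 513 are favoured.

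Markers of other cell types moved with these genes in part. The 8 ependymal markers summed to 1016, 891 and 951 CPM in HET and 572, 486 and 710 CPM in WT animals, and 8 of 8 were higher in every HET animal, as were 15.5% of all tested genes (median log2 fold change 0.91). *Foxj1*, the master regulator of motile cilia, led this list at 647, 582 and 611 CPM against 401, 349 and 484 CPM, followed by the axonemal gene *Ccdc153* at 93.4, 77.3 and 87.4 CPM against 40.5, 29.6 and 50.6 CPM. The order of the animals in the ependymal sum, 505, 508, 506, 513, 510, 511, was that of *Cldn2* and not that of *Ttr*. All 8 meningeal fibroblast markers were positive (median 0.99), but 1 of 8 was higher in every HET animal (15.5% of all tested genes), and *Col1a2*, after *Col1a1* the most abundant, was at 471, 154 and 120 CPM against 144, 233 and 56.3 CPM. The part of either cell type in the differences of the 10 genes was not tested.

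Of the remaining lists, those of retinal pigment epithelium and hepatocytes bear on where *Ttr* or *Otx2* are also found, and the others describe further cell types. Retinal pigment epithelium shares both, and its 8 markers summed to 11.6 to 14.9 CPM in HET and 9.59 to 11.3 CPM in WT animals, with *Tyr* at 0 counts in every animal and most of the sum from *Mitf* (7.52 to 9.76 against 6.68 to 7.47 CPM), followed by *Rlbp1* (1.08 to 1.57 against 0.96 to 1.50 CPM). Hepatocytes secrete *Ttr* as well, and their 5 markers summed to 1.04 to 1.08 CPM in HET and 0.89 to 1.03 CPM in WT animals, with *Serpina1a* at 0 and *Apoa2* and *Apoa1* the highest. *Hba-a2*, a haemoglobin gene of red blood cells, ran the other way at 0.11, 0.19 and 0.25 CPM in HET and 0.25, 0.42 and 0.40 CPM in WT animals. It was lower in every HET animal, as were 13.5% of all tested genes (log2 fold change −0.95, standard error 0.40). Its counts were only 5, 8 and 10 in HET and 13, 19 and 17 in WT animals, too low to size the difference well. Endothelial markers summed to 62.0 to 136 CPM in HET and 59.6 to 66.9 CPM in WT animals, most of it *Slco1c1*, followed by *Kdr*. Of 5 tested, 4 were positive and 1 (*Kdr*) was higher in every HET animal (15.5% of all tested genes). The other endothelial markers are named here as well. *Pecam1* had 11 to 31 counts and a log2 fold change of −0.04, and *Cldn5* had 0 to 3 counts. *Cdh5* was at 20.5, 3.79 and 3.61 CPM in HET and 2.52, 5.54 and 0.42 CPM in WT animals. It overlapped between genotypes (log2 fold change 1.72, standard error 0.91), as did *Flt1* (0.11, standard error 0.22). Astrocyte markers, led by *Gfap* and *Slc1a2*, summed to 9264 to 10224 CPM in HET and 6006 to 10019 CPM in WT animals, where WT animal 513 lay within the HET range. Neuron markers, led by *Stmn2* and *Map2*, summed to 1835 CPM in HET animal 505, 3180 and 3426 CPM in animals 506 and 508, and 3509 to 3991 CPM in WT animals. Of 6 tested, 2 were lower in every HET animal, as were 13.5% of all tested genes. HET animal 505, the highest for 9 of the 10 genes, was thus also the lowest for the neuron sum and the highest for the fibroblast and endothelial sums, and the part of cell composition in its values was not tested.

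**Figure D5:**
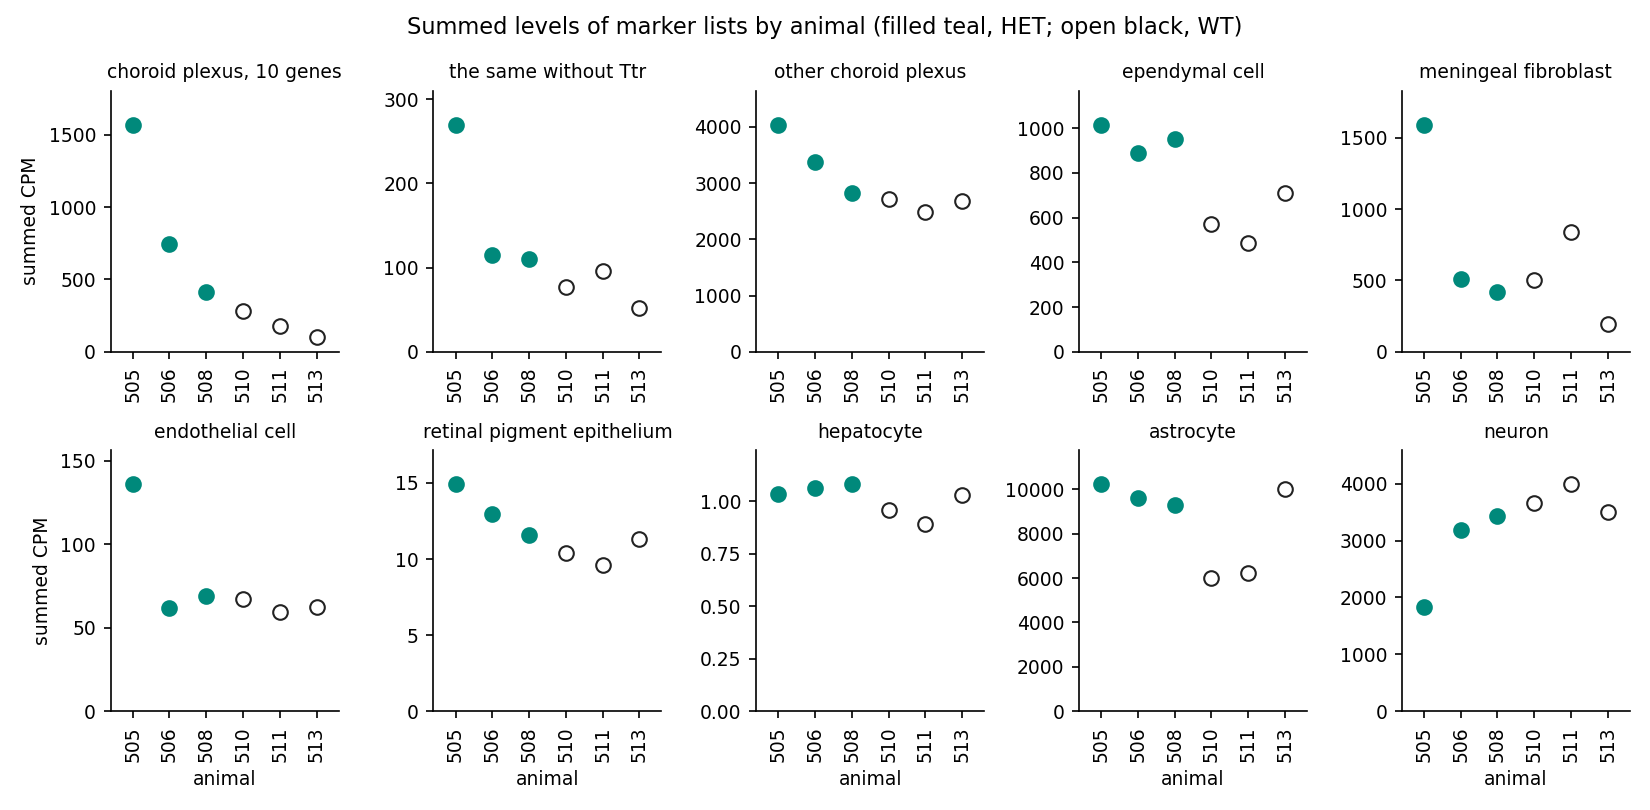
Summed CPM (vertical axes, each from 0) in each animal for the 10 genes, the same without Ttr, the other choroid plexus genes and markers of 7 other cell types, with HET animals filled and WT animals open. The sums of choroid plexus and ependymal genes are higher in every HET animal, and the neuron sum is lower in every HET animal. Retinal pigment epithelium and hepatocyte sums are also higher in every HET animal, but by narrow margins. Their lowest HET and highest WT sums are 11.6 against 11.3 CPM and 1.04 against 1.03 CPM. The gaps of the other choroid plexus and neuron sums are narrow too. Their nearest HET and WT animals are at 2821 against 2719 CPM and at 3426 against 3509 CPM. The fibroblast sum is high in HET animal 505 and WT animal 511.

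The number of members called turned on the processing, and the choice of members used these values, so the counts describe the fits and not the members. Without WT animal 513 edgeR called 6 members higher (*Ttr*, *Folr1*, *Cldn2*, *Clic6*, *Slc4a5* and *Msx1*) among 10 tested, where 12.3% of all tested genes were called. Without the low-count filter it called the same 8 members as DESeq2, where 3.16% of genes were called. A limma voom fit of the 12 libraries called 7 of 9 members higher (all of these 8 but *Kcne2*, which was not tested), where 10.9% of genes were called. With any other animal left out, 0 members were called. Without WT animal 511, which went against its sex label, 8 of 10 members were still higher in every HET animal, and the log2 fold changes were 2.56 for *Ttr*, 1.85 for *Cldn2*, 1.88 for *Clic6*, 2.16 for *Slc4a5*, 1.12 for *Otx2*, 0.92 for *Folr1*, 0.77 for *Msx1* and −0.41 for *Kl*.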

How the data were processed

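RNA of 6 animals (3 HET, 3 WT, 2 libraries each) was analysed, with genotype, animal and library number from the labels. As deposited, the values were raw counts of each gene in each library, which the authors made from 100 bp paired-end reads of strand-marked libraries that were mapped to mm10 with STAR. The sources used here do not name the counting tool. The deposited normalised counts and the deposited table of shrunken log2 fold changes and p-values were not used.

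For each animal the counts of its libraries were added up. The quasi-likelihood test of edgeR 4.0.16 in R 4.3.3 compared genotypes without a covariate, after a low-count filter by genotype and TMM scaling. Its p-values were adjusted by Benjamini-Hochberg over all genes tested, with calls at an adjusted p under 0.1. CPM values are counts scaled to the TMM-adjusted library size, and RPKM values are CPM per kilobase of the exon length in the deposited table. Standard errors were derived from the F statistics. Alternatives were DESeq2 1.42.0, limma 3.58.1 (voom), other filters and size factors, single libraries, a covariate for genetic sex, and the omission of each animal in turn.

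Total counts per animal (40642699 to 52833161) limit the precision for *Kcne2* and *Kl* most, and limits from 0 counts use 3 counts. The animal is the replicate, and the labels do not say whether animals shared a litter or a culture day. Library numbers do not link animals of both genotypes.

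The members and gene lists were chosen with earlier results of these data known. Named were all members, the 3 genes of each role and the 2 of each other cell type with the highest mean CPM, *Xist*, the 10 genes most like the members (pseudocount 0.1 CPM), and genes taken by position. Exceptions are marked. The result of 1 further marker list is not reported here.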

Additional observations from a re-analysis of the deposited data

How the results depend on the processing

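With 3 animals per genotype and a spread that was wide for these genes, whether a member passed the threshold depended on the tool, the filter and 1 WT animal, and the cause was not tested. Counts of genes called by edgeR over all genes were 0 higher and 0 lower. They became 1021 and 454 without the low-count filter, with 8 members and 15 other choroid plexus genes called higher. DESeq2 on 6 animals gave 1324 and 772, with 8 members and 17 others. With 1 animal left out the counts ran from 0 to 2294 higher, 0 to 1109 lower, 0 to 6 members and 0 to 13 others, and the highest values were those without WT animal 513. The limma voom fit of 12 libraries, with the library number as a covariate, gave 1993 and 1804, with 7 members and 19 others. There the animal was a correlated group (estimated correlation 0.77 between its libraries). The library numbers do not pair animals across genotypes. With DESeq2's size factors, a filter of 1 CPM in 3 animals, either library alone, genetic sex as a covariate or an adjusted p under 0.05, 0 members were called.

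The median log2 fold change of the members that passed the filter was 1.25. It was 1.85 with genetic sex as a covariate, which takes WT animal 511 out of the comparison, and ran from 0.95 to 1.87 with 1 animal left out. *Kcne2* passed the filter in 4 of these fits, which adds its large value to the median. The log2 fold change of *Aqp1* reversed to −0.65 without HET animal 505, and with 1 animal left out it ran from −0.65 to 2.02. No other member changed sign in any fit. The number of members with every HET animal above every WT animal was 8, and 7 with library 2 alone. Levels under 10 counts, as for *Kcne2* in WT animals, were too low to size a difference.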
